A study of Mus musculus with 16 samples.

Results

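The thymic homing chemokines described here are Ccl25, Cxcl12, Ccl21a, Ccl19, Ccl17 and Ccl22, small secreted proteins that guide developing T cells and their progenitors through the thymus. Their probe sets, the groups of short oligonucleotides that measure one transcript on the array, were taken by gene symbol from the platform annotation. For Ccl21a, a probe set listing it among several genes was also taken. This gave 7 probe sets for 5 of the 6 listed genes, out of 12422 probe sets and 8252 genes on the array. No probe set named Ccl19 alone, and 1 that lists it among 10 genes is shown beside the others without being counted.

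Total RNA of sorted mouse thymic cells was measured on 16 Affymetrix arrays, 2 for each of 8 groups. The groups were Aire-ko CD80hi mTEC, WT CD80hi mTEC, Aire-ko CD80lo mTEC, WT CD80lo mTEC, and unfractionated WT mTEC, WT cTEC, WT tDC and WT tMPh. Here ko is a knockout of Aire, a transcriptional regulator of medullary epithelium, and WT is wild type. mTEC and cTEC are medullary and cortical thymic epithelial cells, tDC are thymic dendritic cells and tMPh are thymic macrophages. CD80, a costimulatory surface protein, was used to sort mTEC into a high and a low fraction. The labels used here give no strain, age, allele or number of animals, and do not say whether 2 arrays of a group came from separate mice. The p-values therefore measure only the spread between these samples, which can be a technical spread.

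Chemokines bind receptors with 7 membrane passes on migrating cells, and the receptor decides which cell follows which gradient. Ccl25, bound by Ccr9, and Cxcl12, bound by Cxcr4, are known for attracting progenitors and immature thymocytes, and Cxcl12 is known as a product of the cortex. Ccl21 and Ccl19 share the receptor Ccr7, through which positively selected thymocytes reach the medulla. Ccl17 and Ccl22 share the receptor Ccr4 and are known as products of dendritic cells and of medullary epithelium. The atypical receptors Ackr3, which binds Cxcl12, and Ackr4, which binds Ccl25, Ccl19 and Ccl21, remove ligand without classical signalling.

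The RefSeq promoter table for GRCm38.p6 held all 6 genes, and 5 upstream stretches of 250 bases are shown because they belong to genes that moved together or are measured together. Ccl22 (chr8:94745434-94745683, plus strand) and Ccl17 (chr8:94810203-94810452, plus strand) are the Ccr4 ligands, whose genes lie 58.0 kb apart. Ccl21a (chr4:42773992-42774241, minus strand) and Ccl21d (chr4:41903363-41903612, plus strand) are copies that 1 probe set cannot separate. Cxcl12 (chr6:117168285-117168534, plus strand) stands for the cortical pattern. Each is read 5′ to 3′ on the strand of its gene and ends 1 base before the annotated transcript start, and capitals mark every match to the motifs named after the sequences.
Ccl22: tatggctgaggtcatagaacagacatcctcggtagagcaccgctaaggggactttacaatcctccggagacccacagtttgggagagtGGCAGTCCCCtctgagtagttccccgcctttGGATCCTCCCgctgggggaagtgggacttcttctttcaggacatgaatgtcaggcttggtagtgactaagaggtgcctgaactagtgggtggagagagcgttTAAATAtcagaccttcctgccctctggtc
Ccl17: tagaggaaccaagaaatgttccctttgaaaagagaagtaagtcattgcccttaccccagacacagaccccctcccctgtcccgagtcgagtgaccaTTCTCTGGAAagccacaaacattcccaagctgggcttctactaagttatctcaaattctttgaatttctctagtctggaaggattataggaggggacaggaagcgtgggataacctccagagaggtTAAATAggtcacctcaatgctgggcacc
Ccl21a: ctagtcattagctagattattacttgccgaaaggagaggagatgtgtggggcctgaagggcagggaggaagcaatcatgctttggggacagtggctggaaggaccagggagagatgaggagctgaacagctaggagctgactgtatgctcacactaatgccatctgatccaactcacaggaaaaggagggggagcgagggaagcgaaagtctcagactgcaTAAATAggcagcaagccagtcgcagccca
Ccl21d: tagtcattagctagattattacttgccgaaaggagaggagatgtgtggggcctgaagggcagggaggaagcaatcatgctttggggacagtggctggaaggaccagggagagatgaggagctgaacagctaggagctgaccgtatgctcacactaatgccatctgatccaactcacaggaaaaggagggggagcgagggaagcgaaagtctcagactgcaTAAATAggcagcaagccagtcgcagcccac
Cxcl12: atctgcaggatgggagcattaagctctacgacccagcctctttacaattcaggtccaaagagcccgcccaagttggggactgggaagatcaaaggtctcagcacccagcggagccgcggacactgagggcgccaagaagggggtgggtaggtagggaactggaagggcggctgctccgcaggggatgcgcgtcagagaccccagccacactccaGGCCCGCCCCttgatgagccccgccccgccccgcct

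Motifs were searched on both strands, and no matches overlapped in these stretches. The letters TAAATA, chosen after the sequences had been read, began 29 bases before the start in Ccl22, 28 in Ccl17, 29 in Ccl21a and 30 in Ccl21d. These letters occurred anywhere in 12.7% of the 32851 promoter windows of the same length, and TATAAA, absent from these 5, in 12.4%. The stretches of Ccl25 (at each of its annotated starts), Ccl19 and Ccl21b, which are not shown, held no TAAATA, nor did that of Cxcl12. The Ccl25 stretch at chr8:4349338-4349587 held TATAAA 16 bases before its start. Ccl21b, listed on the same probe set as Ccl21a, had a stretch of 78.0% G and C. GGGNNNNNCC, a loose form of the NF-kappaB site, matched at 162 and 131 bases before the Ccl22 start and 36 before the Cxcl12 start, and occurred in 45.8% of all windows. It also matched 250 bases before the Ccl19 start, in the stretch not shown. TTCNNNNGAA, a loose STAT site, matched 154 bases before the Ccl17 start and occurred in 5.9% of all windows. The Ccl21a and Ccl21d stretches, offset by 1 base, differed at 1 of 249 bases compared (99.6% identity). The Cxcl12 stretch was 64.4% G and C, against 53.6% in Ccl22, 52.8% in Ccl21a, 47.6% in Ccl17 and a median of 52.4% over all windows. A match describes these letters only and shows no binding.

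The deposited values are linear signals scaled so that every array has the same trimmed mean, between 100.06 and 100.07. Of the 12422 probe sets, 9319 exceeded a signal of 17.3 on at least 2 arrays and were tested, among them all 7 chemokine probe sets and the shared Ccl19 one. Replicate arrays correlated across probe sets with a Pearson r between 0.896 (tMPh) and 0.966 (WT CD80hi). With 2 arrays a group the number of arrays limits the precision of every value. The Aire probe set read 1589 and 1385 in Aire-ko CD80hi mTEC, against 1829 and 1705 in WT CD80hi mTEC. Where its probes lie relative to the deletion is not given in the sources used here, so this does not check the genotype labels. The medullary keratins Krt5 and Krt14 stayed at or under 18.2 on all arrays, whereas Epcam, an epithelial adhesion protein, lay between 118 and 413 on the mTEC arrays. The medullary list (10 of 10 markers measured) summed to 5846 and 7464 in mTEC, against 331 and 832 in cTEC. Of its 8 tested markers 7 passed as higher in mTEC than in cTEC, and 1 did not pass. There 15.4% of all tested probe sets passed. The sum is not particular to mTEC, at 3424 and 4176 in tDC and 2591 and 3678 in tMPh. The macrophage gene Csf1r read 1163 and 2325 in tMPh, and the dendritic cell integrin Itgax 1188 and 1296 in tDC.

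Differences are on the scale of log2(signal + 4.8), which understates changes of dim probe sets, and each is given with its standard error. "Higher", "lower", "rose" and "fell" as results refer to an adjusted p under 0.05 in limma (Benjamini-Hochberg over the 9319 probe sets, 2-sided), in 1 model of all 16 arrays. Signals of different probe sets cannot be set against each other, so each gene is compared only with itself. Whether arrays of 2 groups overlap is given as a description. With 2 arrays a group they can fail to overlap by chance, and the share over all tested probe sets was not counted. In RNA from many cells, fewer cells of a type and less RNA per cell cannot be told apart.

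**Figure D1:**
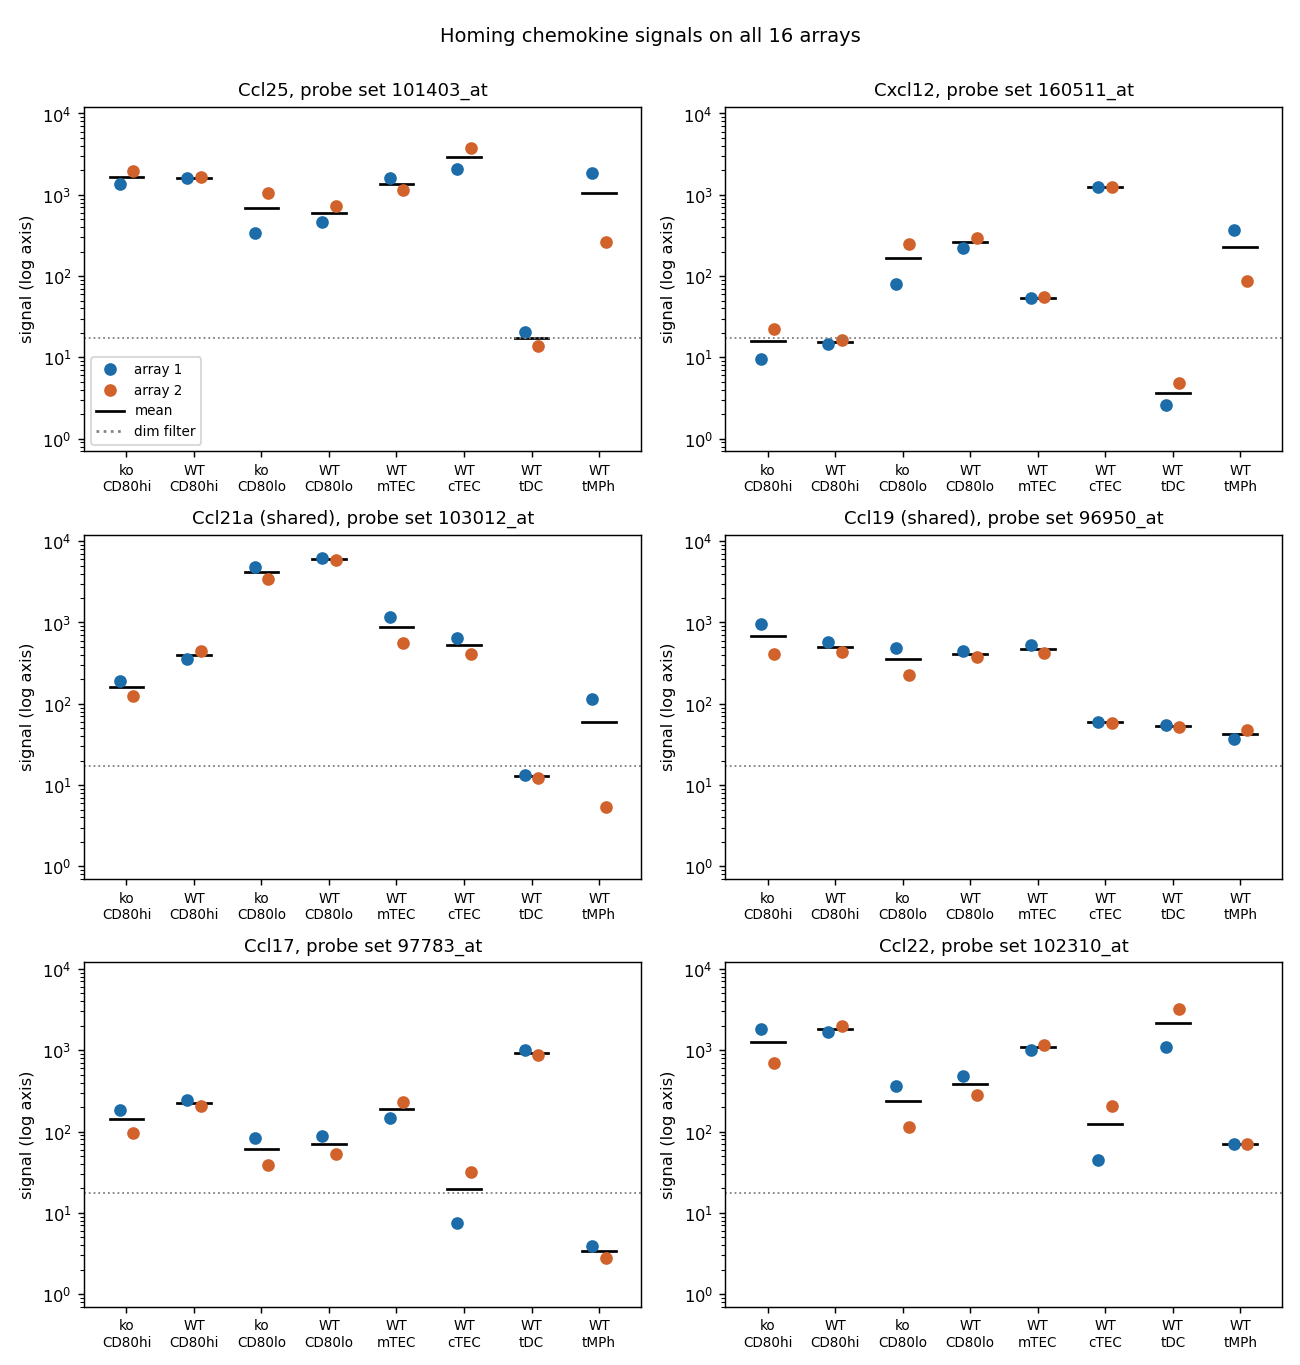
Signal (log axis) of the 6 chemokines on each of the 16 arrays, with 1 point per array and a black line at the group mean; the dotted line is the filter at 17.3. Ccl25 lies above 263 on all but the tDC arrays, Cxcl12 peaks in cTEC, the shared Ccl21a probe set in CD80lo mTEC, and Ccl17 and Ccl22 in tDC and CD80hi mTEC.

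Ccl25 was bright in every epithelial group. Its signals were 1371 and 1972 in Aire-ko CD80hi mTEC, 1613 and 1638 in WT CD80hi mTEC, 336 and 1056 in Aire-ko CD80lo mTEC, and 462 and 737 in WT CD80lo mTEC. The unfractionated groups read 1589 and 1141 in mTEC, 2083 and 3715 in cTEC, 20.4 and 13.9 in tDC, and 1834 and 263 in tMPh. The cTEC arrays were the highest and the tDC arrays the lowest, with no overlap of either with the next group. From Aire-ko CD80hi to WT CD80hi, and from mTEC through tMPh and Aire-ko CD80lo to WT CD80lo, neighbours in the order of means overlapped.

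The CD80hi and CD80lo arrays did not overlap in either genotype for Ccl25, but neither difference passed the test. It was 1.46 ± 0.70 in Aire-ko (95% interval -0.06 to 2.97, adjusted p = 0.224) and 1.47 ± 0.70 in WT (-0.04 to 2.98, adjusted p = 0.226). With only the WT groups in the model, the WT difference passed (adjusted p = 0.00204). The mTEC minus cTEC difference of -1.04 ± 0.70 did not pass either (-2.56 to 0.47, adjusted p = 0.412). Ccl25 was higher in mTEC than in tDC, by 5.96 ± 0.70 (adjusted p = 2.49e-05), and higher in cTEC than in tDC, by 7.0 ± 0.70 (adjusted p = 9.45e-06). These tDC signals lay around the filter of 17.3.

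The 2 tMPh arrays disagreed on Ccl25, at 1834 and 263. The cortical epithelium list (6 of 10 markers measured) summed to 5435 on the first tMPh array and 2590 on the second, against 8656 and 11879 in cTEC. This sum is not particular to cTEC, at 7491 and 8087 in WT CD80lo mTEC and 9933 and 8609 in Aire-ko CD80lo mTEC. In tDC it was 2480 and 2434. Krt18, an epithelial keratin, read 733 and 46.4 in tMPh, and Enpep, a cell-surface peptidase of cTEC, 171 and 25.9. Krt8 read 1213 and 172, and Ctsl, also on the cortical list, 1709 and 1115. Not all epithelial markers differed in this way. Ly75, on the cortical list too, read 257 and 222 in tMPh. Epcam, at 9.5 and 8.8, and Foxn1, a regulator of thymic epithelium, at 10.3 and 13.5, lay under the filter on both tMPh arrays. The thymocyte list (11 of 12 measured) summed to 7109 and 3062 in tMPh, and the macrophage list (13 of 14 measured) to 11941 and 20753. The part of these markers in the tMPh signals of Ccl25 was not tested.

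The mTEC minus tMPh difference was 0.95 ± 0.70 for Ccl25 (-0.57 to 2.46, adjusted p = 0.421) and the cTEC minus tMPh difference 1.99 ± 0.70 (0.48 to 3.50, adjusted p = 0.101). Without the first tMPh array both passed, at 2.33 (adjusted p = 0.0105) and 3.38 (adjusted p = 0.00128). Ccl25 was lower in tDC than in tMPh, at -5.01 ± 0.70 (adjusted p = 0.000345). With only these groups in the model this difference did not pass (adjusted p = 0.0578).

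**Figure D2:**
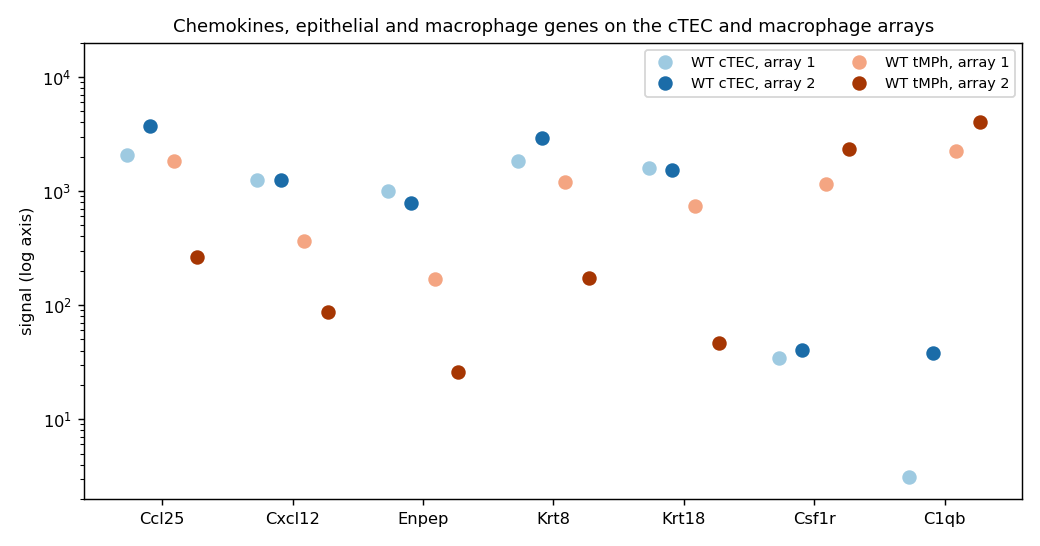
Signal (log axis) of Ccl25, Cxcl12 (brightest probe set), 3 epithelial genes (Enpep, Krt8, Krt18) and 2 macrophage genes (Csf1r, C1qb) on the 2 cTEC and the 2 tMPh arrays, 1 point per array. On the first tMPh array the chemokines and the 3 epithelial genes read higher than on the second, Krt8 at 1213 against 172, and the macrophage genes read lower. The epithelial markers Ly75, Epcam and Foxn1, which differed less between the tMPh arrays, are not shown.

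Cxcl12 was measured by 3 probe sets, and the brightest, 160511_at, leads. It read 9.5 and 22.3 in Aire-ko CD80hi mTEC, 14.5 and 16.6 in WT CD80hi mTEC, 79.4 and 249.9 in Aire-ko CD80lo mTEC, and 224 and 295 in WT CD80lo mTEC. The unfractionated groups read 54.5 and 54.6 in mTEC, 1245 and 1249 in cTEC, 2.6 and 4.8 in tDC, and 366 and 87.6 in tMPh. cTEC was far above every other group, mTEC lay between the 2 CD80 fractions, and tDC was the lowest, each without overlap with its neighbours. WT CD80lo, tMPh and Aire-ko CD80lo overlapped in that order, and so did both CD80hi groups, which lay around the filter.

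The other 2 probe sets gave much the same order. In cTEC, 100112_at read 726 and 632 and 162234_f_at 154 and 147, against 7.7 and 4.1 and against 1.0 and 0.8 in tDC. Over the 8 group means on the log2 scale, the 3 probe sets correlated with a Pearson r of 0.964 to 0.973, a description across groups of the same arrays. The suffix of 162234_f_at marks probes that can match related sequences.

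**Figure D3:**
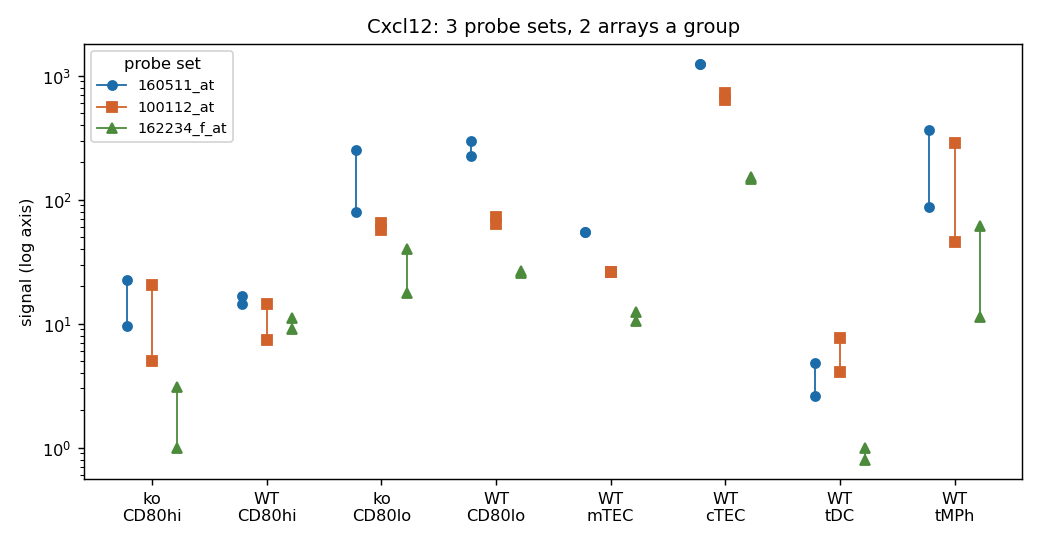
Signal (log axis) of the 3 Cxcl12 probe sets in the 8 groups, with 1 symbol per array and a line joining the 2 arrays of a group. By group mean all 3 are highest in cTEC and lowest in tDC, and in both genotypes the CD80hi arrays lie below the CD80lo arrays. By 100112_at and 162234_f_at the tDC arrays overlap CD80hi arrays, below or near the filter.

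Cxcl12 fell in CD80hi relative to CD80lo mTEC. By 160511_at the difference was -2.90 ± 0.59 in Aire-ko (adjusted p = 0.00419) and -3.69 ± 0.59 in WT (adjusted p = 0.000739), and the stages did not overlap. By 100112_at it was -2.06 ± 0.63 in Aire-ko (adjusted p = 0.0443) and -2.26 ± 0.63 in WT (adjusted p = 0.0282). By 162234_f_at it was -2.23 ± 0.53 in Aire-ko (adjusted p = 0.0116) but did not pass in WT, at -1.06 ± 0.53 (-2.19 to 0.07, adjusted p = 0.247).

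Several of these calls rested on single arrays. In Aire-ko, 160511_at lost its call without the second CD80lo array (adjusted p = 0.0573), and 162234_f_at without that array or the first CD80hi array (adjusted p = 0.102 and 0.0762). There 100112_at lost its call in 9 of 14 alternatives, among them leaving out the second CD80hi array or either CD80lo array (adjusted p up to 0.334). In WT, 100112_at lost its call without any 1 of the 4 arrays (adjusted p up to 0.211), whereas 160511_at kept it (adjusted p up to 0.0131). The fibroblast list (11 of 12 markers measured, among them the collagen genes Col1a1 and Col6a1) summed to 1088 and 1149 in Aire-ko CD80hi and 888 and 788 in WT CD80hi. In the CD80lo fractions it summed to 4362 and 3744 in Aire-ko and 3132 and 2796 in WT. Of the 11 markers 5 fell in CD80hi in Aire-ko and 6 in WT, where 12.8% and 12.7% of all tested probe sets passed in either direction. Col6a1 fell, averaging 169 in CD80hi and 1681 in CD80lo in Aire-ko, and 161 in CD80hi and 1242 in CD80lo in WT. Col1a1 read 19.3 and 56.4 in CD80hi against 38 and 85.6 in CD80lo in Aire-ko, and was higher on both WT CD80hi arrays, at 72.4 and 74.4, than on the WT CD80lo arrays, at 32.3 and 51.4. The part of fibroblast markers in the Cxcl12 difference was not tested.

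Between cell types, Cxcl12 was lower in mTEC than in cTEC by all 3 probe sets, at -4.40 ± 0.59 (adjusted p = 0.000129), -4.46 ± 0.63 (adjusted p = 0.0002) and -3.25 ± 0.53 (adjusted p = 0.000645). It was higher in mTEC than in tDC by 160511_at, at 2.82 ± 0.59 (adjusted p = 0.0025). The other 2 did not pass there, at 1.56 ± 0.63 for 100112_at (0.21 to 2.90, adjusted p = 0.0923) and 1.51 ± 0.53 for 162234_f_at (0.38 to 2.65, adjusted p = 0.0507). With the replicate number of the unfractionated arrays as a block both passed (adjusted p = 0.047 and 0.0342). In cTEC relative to tDC, Cxcl12 was higher by 7.21 ± 0.59, 6.02 ± 0.63 and 4.77 ± 0.53 (adjusted p = 2.07e-06, 1.31e-05 and 2.06e-05).

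Against tMPh the values depended on the 2 disagreeing macrophage arrays. Cxcl12 was higher in cTEC than in tMPh by all 3 probe sets, at 2.76 ± 0.59, 2.49 ± 0.63 and 2.24 ± 0.53 (adjusted p = 0.00598, 0.018 and 0.0116). All 3 calls were lost without the second tMPh array (adjusted p = 0.0885, 0.213 and 0.158), and 2 of them, 100112_at and 162234_f_at, also without either cTEC array. mTEC minus tMPh passed only for 100112_at, at -1.97 ± 0.63 (adjusted p = 0.0362), and not without the first tMPh array, at -0.71 (adjusted p = 0.407), or without either mTEC array (adjusted p up to 0.134). By 160511_at it was -1.64 ± 0.59 (-2.90 to -0.38, adjusted p = 0.0614), which passed with the replicate block (adjusted p = 0.0453) and, at -2.64, without the second tMPh array (adjusted p = 0.0046). By 162234_f_at it was -1.01 ± 0.53 (-2.14 to 0.12, adjusted p = 0.214), which also passed without the second tMPh array (-2.02, adjusted p = 0.00729). In tDC, Cxcl12 was lower than in tMPh by all 3, at -4.46 ± 0.59, -3.52 ± 0.63 and -2.52 ± 0.53 (adjusted p = 0.000202, 0.00214 and 0.00667), and 162234_f_at lost its call without the first tMPh array (adjusted p = 0.0649).

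The Ccl21a probe set, 103012_at, lists 9 genes, all protein coding and on chromosome 4, among them Ccl21a, Ccl21b, Ccl21c and Ccl21d. Its signal is the sum of what these copies give and cannot be assigned to Ccl21a. It read 191 and 126 in Aire-ko CD80hi mTEC, 354 and 443 in WT CD80hi mTEC, 4865 and 3437 in Aire-ko CD80lo mTEC, and 6280 and 5913 in WT CD80lo mTEC. The unfractionated groups read 1184 and 563 in mTEC, 643 and 410.2 in cTEC, 13.5 and 12.1 in tDC, and 115 and 5.4 in tMPh. Both CD80lo groups stood above all others without overlap, WT above Aire-ko. Next came mTEC, cTEC and WT CD80hi, in which neighbours overlapped, then Aire-ko CD80hi, and last tMPh and tDC, which overlapped.

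The shared Ccl21a probe set fell in CD80hi relative to CD80lo mTEC by 4.67 on the log2 scale in Aire-ko (-4.67 ± 0.77, adjusted p = 0.000988) and by 3.93 in WT (-3.93 ± 0.77, adjusted p = 0.00333). It kept both calls in each of the 14 alternatives run in Aire-ko and the 13 in WT (adjusted p up to 0.0441 and 0.0376). The fibroblast sums given for Cxcl12 were also higher in CD80lo. The endothelium list (10 of 10 measured) summed to 268 and 274 in Aire-ko CD80hi and 254 and 268 in WT CD80hi, against 258 and 878 in Aire-ko CD80lo and 1045 and 621 in WT CD80lo. Their part in the Ccl21a difference was not tested.

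Between unfractionated cells, the shared Ccl21a signal was higher in mTEC than in tDC (5.55 ± 0.77, adjusted p = 0.000105) and than in tMPh (4.55 ± 0.77, adjusted p = 0.000571). It was also higher in cTEC than in tDC (4.88 ± 0.77, adjusted p = 0.000396) and than in tMPh (3.89 ± 0.77, adjusted p = 0.00365), the last of which did not pass with only those groups in the model (adjusted p = 0.101). mTEC minus cTEC was 0.66 ± 0.77 (-0.99 to 2.32, adjusted p = 0.687) and the groups overlapped. tDC minus tMPh was -0.99 ± 0.77 (-2.64 to 0.66, adjusted p = 0.553), and it passed without the second tMPh array, at -2.77 (adjusted p = 0.00195).

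The only probe set listing Ccl19, 96950_at, names 10 genes, of which 5 are protein coding and 5 are transcribed pseudogenes, all on chromosome 4. In RefSeq the Ccl19 gene lies 16.5 kb from Ccl21a. The probe set read 954 and 404 in Aire-ko CD80hi mTEC, 568 and 429 in WT CD80hi mTEC, 485 and 223 in Aire-ko CD80lo mTEC, and 443 and 373 in WT CD80lo mTEC. It read 534 and 420.3 in mTEC, 60.2 and 57.8 in cTEC, 55.1 and 52.1 in tDC, and 37.2 and 47.1 in tMPh. All 5 mTEC groups overlapped with their neighbours and lay above cTEC, tDC and tMPh without overlap.

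The shared Ccl19 signal was higher in mTEC than in cTEC (2.91 ± 0.42, adjusted p = 0.00024), tDC (3.04 ± 0.42, adjusted p = 9.91e-05) and tMPh (3.36 ± 0.42, adjusted p = 4.58e-05). It kept these calls in all 13 alternatives of each comparison. Unlike the shared Ccl21a probe set, it did not pass between CD80 stages, at 0.91 ± 0.42 in Aire-ko (0.01 to 1.80, adjusted p = 0.199) and 0.28 ± 0.42 in WT (-0.62 to 1.18, adjusted p = 0.796). cTEC minus tDC was 0.13 (-0.77 to 1.03), cTEC minus tMPh 0.45 (-0.45 to 1.35) and tDC minus tMPh 0.32 (-0.58 to 1.22), none past the test.

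Ccl17 had its highest signals in dendritic cells. It read 186 and 95.6 in Aire-ko CD80hi mTEC, 243 and 207 in WT CD80hi mTEC, 82.1 and 39.0 in Aire-ko CD80lo mTEC, and 88.0 and 52.6 in WT CD80lo mTEC. It read 149 and 229 in mTEC, 7.4 and 31.7 in cTEC, 991 and 869.6 in tDC, and 3.9 and 2.8 in tMPh. tDC stood above all other groups, and tMPh, on which both arrays lay under the filter, below them, without overlap. WT CD80hi, mTEC and Aire-ko CD80hi overlapped in that order, and so did both CD80lo groups.

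Ccl22 followed a like order, with more spread in tDC. It read 1839 and 689 in Aire-ko CD80hi mTEC, 1651 and 1977 in WT CD80hi mTEC, 360.4 and 114 in Aire-ko CD80lo mTEC, and 485 and 278 in WT CD80lo mTEC. It read 1019 and 1145 in mTEC, 44.3 and 206 in cTEC, 1094 and 3222 in tDC, and 69.6 and 70.5 in tMPh. From tDC through WT CD80hi and Aire-ko CD80hi to mTEC, neighbours overlapped, and so did WT CD80lo, Aire-ko CD80lo, cTEC and tMPh. mTEC and WT CD80lo did not overlap. Over the 8 group means, Ccl17 and Ccl22 correlated with a Pearson r of 0.941 and a Spearman rho of 0.976, a description across groups that share arrays.

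The Ccr4 ligands rose in WT CD80hi relative to WT CD80lo mTEC, Ccl17 by 1.65 ± 0.51 (adjusted p = 0.0467) and Ccl22 by 2.28 ± 0.70 (adjusted p = 0.0475). In Aire-ko, Ccl22 rose by 2.44 ± 0.70 (adjusted p = 0.0344), and Ccl17 gave 1.16 ± 0.51, which did not pass (0.08 to 2.25, adjusted p = 0.169). The stages did not overlap for either gene in either genotype. These calls were near the threshold. In WT both were lost in 7 of 13 alternatives, among them leaving out any 1 of the 4 arrays (adjusted p up to 0.321 for Ccl17 and 0.299 for Ccl22). Ccl22 in Aire-ko lost its call in 4 of 14 alternatives. These were leaving out the first CD80hi array (difference 1.74), the second CD80lo array (1.63) or array 1 of both Aire-ko groups (2.54). The last was only the groups compared in the model (2.44, adjusted p = 0.0639).

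Of the dendritic cell markers (7 of 10 measured, all tested), 3 rose in CD80hi in Aire-ko, among them Batf3 and Irf8, transcription factors of dendritic cells. None of the 7 passed in WT, where the list median was 0.73. Over all tested probe sets, 12.8% in Aire-ko and 12.7% in WT passed in either direction. The summed signal of the list was 6721 and 3511 in Aire-ko CD80hi and 3404 and 3302 in WT CD80hi, against 1882 and 1149 in Aire-ko CD80lo and 1998 and 1532 in WT CD80lo. In tDC the sums were 7810 and 8450. Itgax, a defining marker, read 37.3 to 61.8 on the CD80hi arrays and 23.6 to 53.8 on the CD80lo arrays, and Flt3, a receptor of dendritic cell growth, 105 to 237 and 42.1 to 137. The part of these markers in the Ccl17 and Ccl22 differences was not tested.

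In unfractionated cells, Ccl17 was higher in mTEC than in cTEC (3.16 ± 0.51, adjusted p = 0.000576) and tMPh (4.54 ± 0.51, adjusted p = 1.74e-05) and lower in mTEC than in tDC (-2.30 ± 0.51, adjusted p = 0.00363). Ccl22 was higher in mTEC than in cTEC (3.41 ± 0.70, adjusted p = 0.00378) and tMPh (3.86 ± 0.70, adjusted p = 0.00103). For Ccl22 the mTEC minus tDC difference was -0.80 ± 0.70 and did not pass (-2.30 to 0.71, adjusted p = 0.487). Without the first cTEC array, Ccl22 lost its mTEC minus cTEC call, at 2.36 (adjusted p = 0.0634).

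Both genes were lower in cTEC than in tDC, Ccl17 at -5.47 ± 0.51 (adjusted p = 4.95e-06) and Ccl22 at -4.21 ± 0.70 (adjusted p = 0.000636). Both were higher in tDC than in tMPh, Ccl17 at 6.84 ± 0.51 (adjusted p = 2.76e-06) and Ccl22 at 4.65 ± 0.70 (adjusted p = 0.000606). cTEC minus tMPh passed for neither, at 1.38 ± 0.51 for Ccl17 (0.29 to 2.46, adjusted p = 0.118) and 0.44 ± 0.70 for Ccl22 (-1.07 to 1.95, adjusted p = 0.861). Without the first cTEC array Ccl17 passed, at 2.17 (adjusted p = 0.024).

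The calls of the CD80 stage comparisons were counted over the 7 probe sets. In Aire-ko CD80hi relative to CD80lo mTEC, 1 rose (Ccl22), 4 fell (the 3 of Cxcl12 and the shared Ccl21a) and 2 did not pass, where 12.8% of all tested probe sets passed. In WT, 2 rose (Ccl17 and Ccl22), 3 fell (2 of Cxcl12 and the shared Ccl21a) and 2 did not pass, where 12.7% of all passed. Since 3 of the 7 probe sets measure Cxcl12, these counts are not of 7 independent genes. In Aire-ko, 2 of the 7 passed without array 1 of both groups, a setting chosen after seeing the data, 3 without the first CD80hi array and 1 without the second CD80lo array. In WT, 2 passed without any 1 of the 4 arrays.

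Aire genotype moved none of the chemokines past the test. In Aire-ko CD80hi relative to WT CD80hi mTEC, 0 of the 7 probe sets passed by limma and 1 had an unadjusted p under 0.05, where 3.05% of all tested probe sets passed and 1076 of the 9319 had an unadjusted p under 0.05. The 1 chemokine probe set was Cxcl12 by 162234_f_at, at 1.0 and 3.1 in Aire-ko CD80hi against 11.2 and 9.0 in WT CD80hi (-1.13 ± 0.53, adjusted p = 0.432), all below the filter. In Aire-ko CD80lo relative to WT CD80lo, 0 of the 7 passed and 0 had an unadjusted p under 0.05, where 0.322% of all passed and 517 had an unadjusted p under 0.05. Neither count changed under any of the 14 alternatives.

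The intervals of these genotype differences were wide. In CD80hi mTEC they were -1.5 to 1.53 for Ccl25, -1.30 to 1.21 for Cxcl12 (160511_at), -2.98 to 0.33 for the shared Ccl21a, -1.81 to 0.36 for Ccl17 and -2.19 to 0.83 for Ccl22. In CD80lo mTEC they were -1.48 to 1.54 for Ccl25, -2.10 to 0.42 for Cxcl12, -2.23 to 1.08 for the shared Ccl21a, -1.33 to 0.84 for Ccl17 and -2.35 to 0.67 for Ccl22. The shared Ccl21a difference was -1.32 ± 0.77 in CD80hi (adjusted p = 0.609) and -0.57 ± 0.77 in CD80lo (adjusted p = 0.999). For Ccl17 in CD80hi it was -0.73 ± 0.51 (adjusted p = 0.731). For the shared Ccl19 probe set it was 0.33 ± 0.42 in CD80hi and -0.30 ± 0.42 in CD80lo. None of these passed.

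The Aire-ko arrays differed between themselves in the same way at both stages. Array 1 read higher than array 2 for Ccl22, Ccl17, the shared Ccl19, the shared Ccl21a and Cxcl12 by 100112_at, in CD80hi and in CD80lo. It read lower at both stages for Ccl25 and for Cxcl12 by 160511_at and 162234_f_at. Ccl22, for instance, read 1839 against 689 in CD80hi and 360.4 against 114 in CD80lo. On the WT arrays the direction was the same at both stages for Ccl25, Ccl17, the shared Ccl19 and Cxcl12 by 160511_at. For Ccl22, the shared Ccl21a and Cxcl12 by 162234_f_at it was the same in CD80lo only, and for 100112_at at neither stage. The difference of the Aire effect between the stages, which is also the difference of the stage change between genotypes, passed for 0 of the 7 by limma, and 0 had an unadjusted p under 0.05, where 1.3% of all passed and 775 had an unadjusted p under 0.05. The difference was -0.48 ± 0.72 for Ccl17 (-2.02 to 1.05), so the Ccl17 call in WT and its absence in Aire-ko were not shown to differ.

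**Figure D4:**
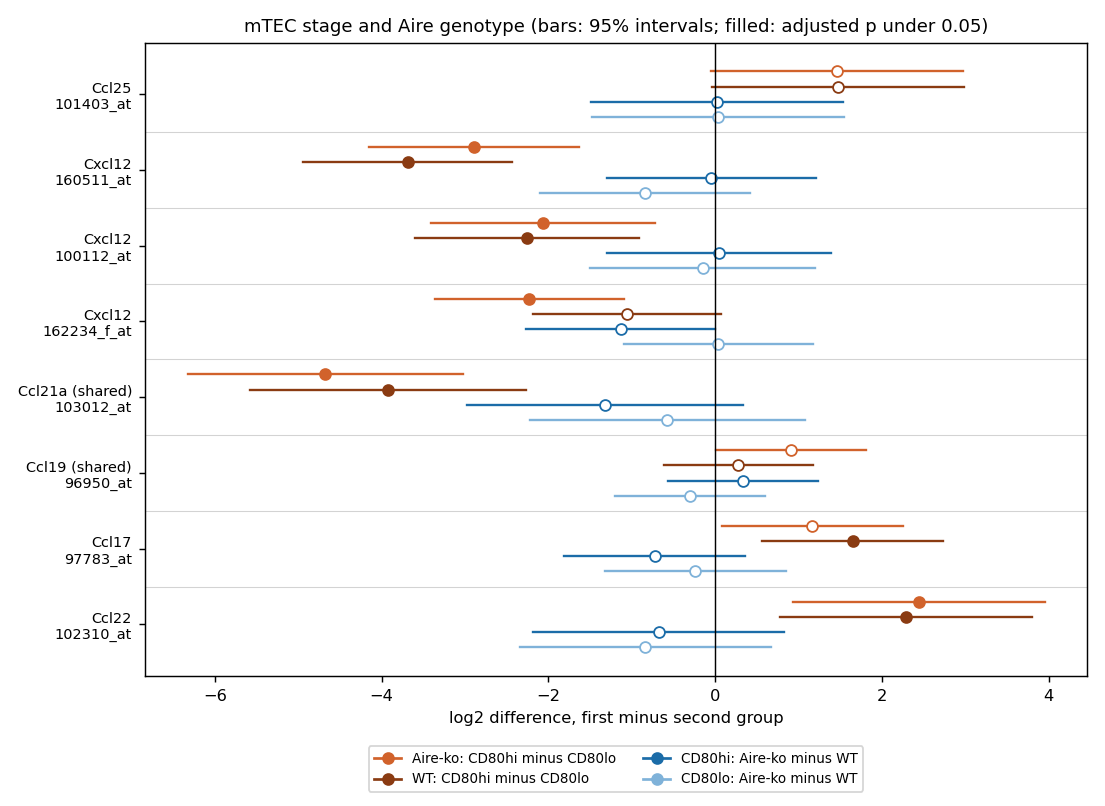
Log2 difference (horizontal axis) of each chemokine probe set between CD80 stages in Aire-ko and WT mTEC and between Aire-ko and WT at each stage; bars are 95% intervals and filled points have an adjusted p under 0.05. Cxcl12 and the shared Ccl21a lie left of 0 and Ccl17 and Ccl22 right of 0 for the stages in both genotypes, and no genotype difference is filled.

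The unfractionated groups were counted in the same way. In mTEC relative to cTEC, 2 of the 7 were higher (Ccl17 and Ccl22), 3 lower (Cxcl12) and 2 did not pass, where 15.4% of all tested probe sets passed. In mTEC relative to tDC, 3 were higher, 1 (Ccl17) was lower and 3 did not pass (24.3% of all), and relative to tMPh 3 were higher, 1 was lower and 3 did not pass (22% of all). In cTEC relative to tDC all 7 passed, 5 higher and 2 lower (17.7% of all). Relative to tMPh 4 were higher in cTEC and 3 did not pass (10.8% of all). In tDC relative to tMPh 2 were higher, 4 lower and 1 did not pass (9.25% of all). With only the 2 groups compared in the model, 0 passed for cTEC against tMPh and 3 for tDC against tMPh. Without the second cTEC array 2 passed for cTEC against tMPh, and without the second tMPh array 1 passed.

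**Figure D5:**
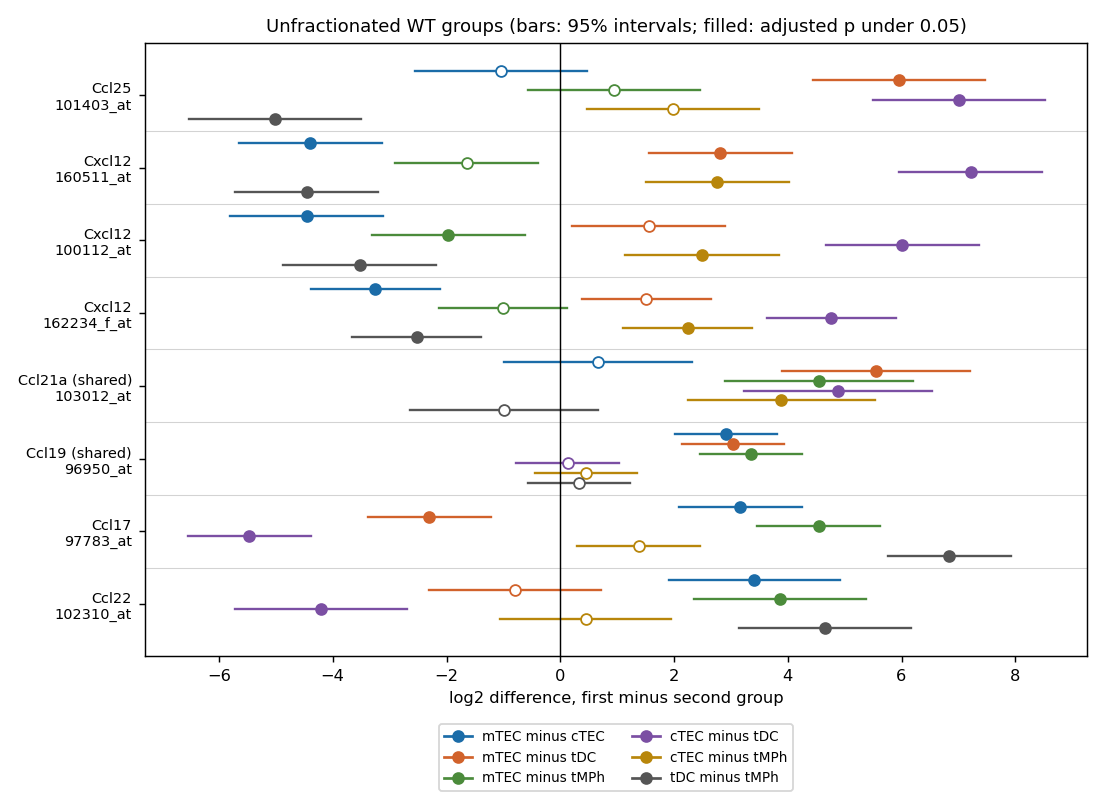
Log2 difference (horizontal axis) of each chemokine probe set in the 6 comparisons of unfractionated WT groups; bars are 95% intervals and filled points have an adjusted p under 0.05. The mTEC minus cTEC points lie near -4 for the brightest Cxcl12 probe set (-4.40) and near 3 for Ccl17 (3.16), Ccl22 (3.41) and the shared Ccl19 (2.91).

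Signals of the receptors of these ligands were also read. Ccr9, the Ccl25 receptor, read 1.7 and 4.4 in mTEC, 39.6 and 65.3 in cTEC, 19.2 and 30.4 in tDC, and 75.7 and 27.6 in tMPh. It was lower in mTEC than in cTEC (-2.85 ± 0.49, adjusted p = 0.000984), tDC (-1.91 ± 0.49, adjusted p = 0.00981) and tMPh (-2.72 ± 0.49, adjusted p = 0.000921). The call against tDC was lost without the first mTEC array or the second tDC array (adjusted p up to 0.082). The thymocyte list summed to 417 and 440 in mTEC, 4067 and 7687 in cTEC, 2744 and 2965 in tDC and 7109 and 3062 in tMPh, and its part in the Ccr9 signals was not tested.

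Ccr7, the receptor of Ccl19 and Ccl21, read 307 and 218 in tDC, against 53.3 and 38.8 in mTEC, and was lower in mTEC than in tDC (-2.39 ± 0.43, adjusted p = 0.000924). In CD80hi mTEC it read 214 and 285 in Aire-ko and 107 and 138 in WT, and in CD80lo mTEC 40.3 and 39.7 in Aire-ko and 63.6 and 31.8 in WT. It rose in CD80hi in Aire-ko (2.49 ± 0.43, adjusted p = 0.00151). In WT the stage difference was 1.34 ± 0.43 and did not pass (adjusted p = 0.0606), though it passed in 4 of 13 alternatives. The difference between the genotypes' stage changes did not pass either (1.15 ± 0.61, adjusted p = 0.746). Ccr4, the receptor of Ccl17 and Ccl22, read 20.8 and 15.6 in Aire-ko CD80hi and 29.2 and 27.1 in WT CD80hi, against 3.1 and 5.5 in Aire-ko CD80lo and 4.1 and 3.7 in WT CD80lo. It rose with CD80 in both, by 1.34 ± 0.41 in Aire-ko (adjusted p = 0.0437) and 1.92 ± 0.41 in WT (adjusted p = 0.0056). The Aire-ko call was lost in 8 of 13 alternatives, among them leaving out any 1 of the 4 arrays (adjusted p up to 0.419), and the WT call without the first CD80hi array (adjusted p = 0.0502).

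The atypical receptors were also read. Ackr4 read 294 and 81.9 in cTEC, against 3.9 and 12 in tDC and 22.3 and 14.6 in tMPh, and was higher in cTEC than in tDC (3.73 ± 0.60, adjusted p = 0.00046) and tMPh (2.81 ± 0.60, adjusted p = 0.00609). In unfractionated mTEC Ackr4 read 37.6 and 36.7. It was lower there than in cTEC (-1.94 ± 0.60, adjusted p = 0.0416) and higher than in tDC (1.79 ± 0.60, adjusted p = 0.0415). Against tMPh the mTEC difference did not pass (0.87 ± 0.60, adjusted p = 0.372). In WT mTEC it fell in CD80hi, at 23.1 and 4.1 against 71.1 and 78.1 in CD80lo (-2.33 ± 0.60, adjusted p = 0.0184), a call lost without the second CD80hi array or either CD80lo array (adjusted p up to 0.242). In Aire-ko the Ackr4 stage difference was -1.22 ± 0.60 and did not pass (adjusted p = 0.233). The call of cTEC against tMPh was lost without the first cTEC array or the second tMPh array and with only those groups in the model (adjusted p up to 0.11). Ackr3 fell in Aire-ko CD80hi, at 0.9 and 9.4 against 96.2 and 44.6 in Aire-ko CD80lo (-2.97 ± 0.51, adjusted p = 0.00144), a call lost without array 1 of both Aire-ko groups (adjusted p = 0.111). In WT it read 16.5 and 22.9 in CD80hi against 34.4 and 20.1 in CD80lo, and the difference did not pass (-0.36 ± 0.51, adjusted p = 0.778). Nor did the difference between the genotypes' stage changes (-2.61 ± 0.73, adjusted p = 0.123). Ackr3 read 15.5 and 22.8 in unfractionated mTEC, 0.3 and 1.1 in cTEC, 0.8 and 0.6 in tDC, and 6.4 and 0.6 in tMPh. It was higher in mTEC than in cTEC (2.11 ± 0.51, adjusted p = 0.0113), tDC (2.11 ± 0.51, adjusted p = 0.00737) and tMPh (1.61 ± 0.51, adjusted p = 0.0371). The mTEC calls of Ackr3 and Ackr4 were not followed through the alternatives.

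Cxcr4, the signalling receptor of Cxcl12, read 4.9 and 8 in mTEC, 14 and 23 in cTEC, 19.8 and 22.5 in tDC, and 19.6 and 41.2 in tMPh. It was lower in mTEC than in tDC (-1.22 ± 0.39, adjusted p = 0.0321) and tMPh (-1.59 ± 0.39, adjusted p = 0.00768), and the mTEC signals lay under the filter of 17.3. The call against tDC was lost without any 1 of the 4 arrays (adjusted p up to 0.181), and that against tMPh without the first mTEC array or the second tMPh array (adjusted p up to 0.101). Both were also lost with only the groups compared in the model.

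Of 22 listed chemokine receptors, 18 were measured and 16 tested. In CD80hi relative to CD80lo mTEC, 5 rose and 1 fell in Aire-ko and 4 rose and 1 fell in WT, with list medians of 0.44 and 0.47 against -0.03 and -0.04 over all tested probe sets, of which 12.8% in Aire-ko and 12.7% in WT passed in either direction. Of 30 other chemokines, 21 were measured and 19 tested, of which 3 rose and 5 fell in Aire-ko and 6 rose and 1 fell in WT (medians -0.26 and 0.77). Of 12 tested macrophage markers, 2 rose and 1 fell in Aire-ko and 4 rose in WT. The other 9 in Aire-ko and 8 in WT did not pass (list medians 0.09 and 1.07). Among the risers, Mrc1, a mannose receptor, averaged 112 in CD80hi and 3.15 in CD80lo in Aire-ko, and Lyz2, a lysozyme, 545 in CD80hi and 35.2 in CD80lo in WT. Adgre1, a defining macrophage marker, read 2.3 to 19.9 on the CD80hi and 2.3 to 3.2 on the CD80lo arrays, against 507 and 1199 in tMPh. Csf1r read 40.3 to 110 and 15.3 to 44.7, against 1163 and 2325 in tMPh. The part of the macrophage markers in the chemokine counts was not tested. Over the alternatives 1 to 5 receptors rose in either genotype, with 2 or 3 without the second Aire-ko CD80hi array or either Aire-ko CD80lo array, 1 without the first WT CD80hi array and 2 without the first WT CD80lo array. Of the other chemokines, 2 to 5 rose in Aire-ko and 3 to 9 in WT, with 3 in WT without the first CD80lo array or either CD80hi array. In Aire-ko 3 of them fell without the first CD80hi array or the first CD80lo array.

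Ccl11, an attractant of eosinophils, moved with Cxcl12, at -3.47 ± 0.47 in Aire-ko and -3.84 ± 0.47 in WT (adjusted p = 0.000221 and 9.6e-05). Ccl9 rose, by 3.05 ± 0.33 in Aire-ko and 4.46 ± 0.33 in WT (adjusted p = 4.39e-05 and 3.36e-06). In Aire-ko CD80hi relative to WT CD80hi, 3.05% of all tested probe sets passed, 16 of them higher and 268 lower. Of the 19 tested other chemokines 2 fell there, Ccl8 at -2.37 ± 0.47 (adjusted p = 0.0117) and Ccl9 at -1.56 ± 0.33 (adjusted p = 0.0173). This count was 0 to 5 over the alternatives, 0 without the first array of either group, 1 without the second WT array and 4 without the second Aire-ko array. The Ccl8 call was lost without the first array of either group (adjusted p up to 0.206). The Ccl9 call was lost without the first Aire-ko CD80hi array or either WT CD80hi array (adjusted p up to 0.224). The macrophage list summed to 1050 and 954 in Aire-ko CD80hi and 1789 and 1463 in WT CD80hi, and 2 of its 12 tested markers also fell; its part in these differences was not tested.

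In mTEC relative to cTEC, 10 of these 19 chemokines were higher (median 1.31, against -0.03 over all), where 15.4% of all tested probe sets passed in either direction. Of the 12 tested macrophage markers 3 were also higher, among them Lyz2, which averaged 508 in mTEC and 48.4 in cTEC, and 9 did not pass. Adgre1 read 9.6 and 23.5 in mTEC and 2.7 and 3.1 in cTEC, and Csf1r 59.7 and 91.9 in mTEC and 34.6 and 40.2 in cTEC. The part of the macrophage markers in the chemokine count was not tested. Among the higher chemokines was Cxcl2, which draws neutrophils, at 4.48 ± 0.53 (adjusted p = 5.27e-05). The count was 6 without the first mTEC array, and 5 without the second mTEC array or without the first cTEC array. Of 16 tested upstream signals and regulators (22 listed, 17 measured), 5 rose in CD80hi in Aire-ko and 4 in WT, and the others did not pass (12.8% and 12.7% of all tested probe sets passed). Among them was the lymphotoxin gene Lta, which rose by 3.84 ± 0.43 in Aire-ko and 4.17 ± 0.43 in WT (adjusted p = 5.68e-05 and 2.97e-05). Ltbr, the lymphotoxin beta receptor, was lower in mTEC than in cTEC, at 46.9 and 54.6 against 145 and 109.6 (-1.24 ± 0.38, adjusted p = 0.0383), a call lost without any 1 of the 4 arrays (adjusted p up to 0.222). Foxn1, the regulator of thymic epithelium, was higher in mTEC and in cTEC than in tDC (2.11 ± 0.36 and 2.55 ± 0.36, adjusted p = 0.000553 and 0.000158).

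Of 7 peptidases and matrix partners of chemokines, all tested, Mmp9, a gelatin-degrading protease that also cleaves chemokines, fell with Cxcl12 in CD80hi. It gave -2.92 ± 0.66 in Aire-ko and -2.67 ± 0.66 in WT (adjusted p = 0.00837 and 0.0141). The other 6 did not pass (12.8% and 12.7% of all tested probe sets passed). The Aire-ko call was lost without the first CD80hi array or the second CD80lo array (adjusted p up to 0.131), and the WT call without any 1 of the 4 arrays (adjusted p up to 0.0954). Mmp9 was higher in cTEC than in tDC (6.04 ± 0.66, adjusted p = 1.74e-05), as was the heparan sulfate proteoglycan Sdc1 (4.41 ± 0.47, adjusted p = 1.45e-05).

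The genes whose 8 group means on the log2 scale were most like those of each chemokine are given as a description, with Pearson's r over the 8 groups. For Ccl25 they were Dtx1 (0.986), a regulator of Notch signalling, Nkiras1 (0.973) and Coq7 (0.964). For Cxcl12 (160511_at) they were Isca1 (0.989), Copz2 (0.986) and the potassium channel gene Kcnk2 (0.973). For the shared Ccl21a probe set they were Ccdc80 (0.989), Col6a1 (0.988), a collagen gene that is also on the fibroblast list, and the interferon-induced GTPase gene Iigp1 (0.987). Ccl17 was most like Phldb1 (0.971), Traf1 (0.963) and Avpi1 (0.962), and Ccl22 most like Tm4sf5 (0.988), Traf1 (0.986) and the chemokine gene Ccl5 (0.976). Traf1, an adaptor of tumour necrosis factor receptors, was thus named for both Ccr4 ligands. For the shared Ccl19 probe set they were Gja4 (0.989), Pcdh7 (0.989) and Wnk2 (0.988).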

How the data were processed

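Per the labels, total RNA of sorted thymic cells was hybridised to Affymetrix arrays in 16 samples, and titles gave the 8 groups and the replicate numbers. The authors deposited 12488 probe sets with 1 linear intensity per array, and their 2%-trimmed means were 100.06 to 100.07. The software behind these intensities is not given in the sources used here. Values were used as deposited. The members and lists were chosen with earlier results of these data known.

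After adding 4.8 (the 20th percentile) and taking log2, 66 control probe sets and 3103 at or under 17.3 (the 40th percentile) on all but at most 1 array were left out. All 11 comparisons were taken from the same linear model (lmFit and trended eBayes in limma 3.58.1 under R 4.3.3, with the data.table package at 1.17.8), which had 8 residual and 5.97 prior degrees of freedom. The steps were tested on simulated data. Symbols came from the platform annotation and promoters from RefSeq (GRCm38.p6). All probe sets of the 6 members were named, at most 2 called genes per pathway list and comparison, the members' receptors, Foxn1 and Ltbr, and the 3 likest genes. Same-numbered unfractionated arrays deviated together (Pearson r 0.279 to 0.526 in 6 of 6 pairs of groups). The model used did not pair any arrays, and a block of the replicate number was run only as an alternative. Alternatives were quantile normalisation, other constants and filters, no trend, only the groups compared, a replicate block and each array left out.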

Additional observations from a re-analysis of the deposited data

How the results depend on the processing

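Of 43 called single differences, 27 kept their call and direction in every alternative run, and none reversed in 564 alternatives, of which 56 lost the call. Of 45 differences not called, 20 of 644 alternatives gave a call and 35 turned the sign. The 29 called differences of other named genes that were followed through the alternatives lost their call in 45 of 379. The 3 followed that were not called gained one in 4 of 39, and none reversed. The number of arrays limits all of these, and the causes were not tested. Leaving out 1 array also leaves fewer samples.

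Of the counts of called chemokine probe sets, that of WT CD80hi minus CD80lo, 5, was 3 with a constant of 1, without the dim filter or without the trend, and 2 with each array left out in turn. That of Aire-ko CD80hi minus CD80lo, 5, was 3 with only the groups compared, 2 without array 1 of both Aire-ko groups (chosen after seeing the data) and 1 to 4 without each array. That of cTEC minus tMPh, 4, was 0 with only the groups compared and 1 to 5 without each array, and that of tDC minus tMPh, 6, was 3 with only the groups compared.

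Signs turned only among differences not called. Quantile normalisation gave -0.085 for Ccl25 and 0.18 for Cxcl12 160511_at in CD80hi (Aire-ko minus WT), -0.016 for Ccl25 in CD80lo and -0.059 for the shared Ccl19 in cTEC minus tDC. Without array 1 of both Aire-ko groups, CD80hi gave 0.42 for Cxcl12 160511_at, -0.64 for 100112_at and -0.29 for the shared Ccl19, and the difference of the Aire effect for 100112_at was -0.40. Leaving out each array in turn, the signs turned within -0.24 to 0.28 for Ccl25, -0.51 to 0.42 for Cxcl12 160511_at, -0.64 to 0.73 for 100112_at, -0.29 to 0.94 for the shared Ccl19 and -1.38 to 0.025 for Ccl22 (Aire-ko minus WT, CD80hi). In CD80lo they turned within -0.79 to 0.85 for Ccl25, -0.45 to 0.53 for Cxcl12 162234_f_at, -0.85 to 0.25 for the shared Ccl19 and -0.74 to 0.25 for Ccl17. The difference of the Aire effect ranged over -0.83 to 0.80 for Ccl25, -0.0049 to 1.59 for Cxcl12 160511_at, -0.49 to 0.88 for 100112_at, -0.98 to 0.011 for Ccl17 and -0.65 to 0.97 for Ccl22. Among cell types the ranges were -0.44 to 2.33 for Ccl25 and -2.02 to 0.0067 for Cxcl12 162234_f_at in mTEC minus tMPh, -0.61 to 1.5 for Ccl22 in cTEC minus tMPh and -2.77 to 0.79 for the shared Ccl21a in tDC minus tMPh.

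Same-numbered CD80-sorted arrays correlated at 0.0282 to 0.517 (4 of 6 pairs of groups over 0.1, the highest being Aire-ko CD80hi with Aire-ko CD80lo). With the replicate block over these arrays, Cxcl12 100112_at in Aire-ko lost its stage call (adjusted p = 0.054, against 0.0443). The block over the unfractionated arrays changed the 3 calls given with the results and no other.

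Over all tested probe sets, the number called ranged over the alternatives from 81 to 363 in Aire-ko CD80hi minus WT CD80hi (284), 8 to 51 in Aire-ko CD80lo minus WT CD80lo (30), 626 to 2456 in WT CD80hi minus WT CD80lo (1186), 532 to 1645 in Aire-ko CD80hi minus Aire-ko CD80lo (1193), 34 to 216 for the difference of the Aire effect (121), 860 to 1812 in mTEC minus cTEC (1434), 1360 to 2492 in mTEC minus tMPh (2048), 1040 to 2091 in cTEC minus tDC (1652), 424 to 1297 in cTEC minus tMPh (1008) and 180 to 1190 in tDC minus tMPh (862), with the number of the model used in brackets.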
